A study of Xenopus laevis with 15 samples.

Results

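The genes described here are the ier (immediate early response) genes of Xenopus laevis, whose RNA was sequenced from Xenobots. Xenobots are motile spheres of ciliated epidermis that heal from ectoderm cut out of frog embryos. The ier genes were chosen by name, as every row of the count table for ier2, ier3, ier5 or ier5l with the ending .L or .S, which marks the 2 copies (homeologs) that this allotetraploid frog carries of many genes. The name matched 7 of 42638 rows, namely both copies of ier2, ier5 and ier5l and the .L copy of ier3. All 7 passed the filter on low counts, as did 24052 genes in all. The family was singled out because both ier5l copies differed between 4 h and 0 h after a stimulus in these same libraries. The values of ier5l are therefore given as a description, with no test wherever that choice used the values, while ier2, ier3 and ier5 were taken by name alone and were tested.

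Immediate early genes are switched on by existing transcription factors within minutes of a stimulus, before any protein has to be made, and their mRNAs are mostly short-lived. Ier2, ier5 and ier5l encode related nuclear proteins with a shared amino-terminal domain, whereas ier3 is unrelated to them in sequence and has its name from its induction. In human cells IER5 and IER5L bind the phosphatase PP2A, and IER5 promotes the dephosphorylation of the heat shock factor HSF1; human IER3 acts in apoptosis and in ERK kinase signalling.

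Each library came from a pool of 50 wild-type Xenobots that had developed for 7 days at 14 °C. There were 5 groups of 3 libraries. The extract groups were collected 4 h after (Ext 4 h) or immediately after (Ext 0 h) exposure to a homogenate of 3 blastula embryos, of which 10 µL was added per 14 mL of medium, and the ATP groups 4 h after (ATP 4 h) or immediately after (ATP 0 h) exposure to 250 µM ATP. The Ctrl group was collected before any stimulus, and every comparison with Ctrl uses the same 3 libraries. Nothing in the labels says whether the pools of a group came from separate clutches, so the p-values measure the spread between pools. No unstimulated group at 4 h was analysed here, so time and stimulus cannot be told apart in any comparison of 4 h with 0 h or with Ctrl. In bulk RNA, fewer cells of a type and less RNA per cell cannot be told apart.

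Total expected counts were between 12583039 and 20325075 per library. Levels are CPM, counts scaled to the size of the library with TMM factors, and since transcript lengths were not used, they compare 1 gene between libraries and not 1 gene with another. The 22 epidermal marker rows, of which 19 passed the filter, summed to between 4619 and 7117 CPM in every library. Most of that sum was itln1.L, at 3590 to 5770 CPM. Others were also present in all 15 libraries, such as grhl3.S at 145 to 222 CPM and krt70.S at 157 to 276 CPM. In contrast, mcidas.L, mcidas.S and otogl.L averaged only 0.186, 0.387 and 0.0465 CPM. Of 22 marker rows of other tissues 8 passed the filter and 3 were at 0 in all 15 libraries, and apart from muscle they summed to 3.46 to 8.28 CPM. The muscle markers myh4.L, actc1.L and actc1.S stood apart. They summed to 3.41 to 23.8 CPM at Ext 4 h, 2.09 to 11.8 CPM at Ext 0 h, 78.6 to 171 CPM at ATP 4 h, 3.82 to 56.0 CPM at ATP 0 h and 9.62 to 144.5 CPM in Ctrl. The 17 marker rows of blastula and maternal transcripts, of which 3 passed the filter and 1 was at 0 in all libraries, summed to 2.86 to 4.36 CPM over all 5 groups.

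Both ier5l copies were lower 4 h after either stimulus than directly after it, and at 4 h they were mostly also lower than before any stimulus. The .L copy had 40.0, 43.1 and 51.0 CPM at Ext 4 h and 61.2, 62.0 and 67.3 CPM at Ext 0 h. It had 42.3, 40.3 and 38.8 CPM at ATP 4 h and 63.1, 54.1 and 62.7 CPM at ATP 0 h. In Ctrl it had 51.6, 45.8 and 63.0 CPM. Every library at 4 h lay below every library at 0 h for ier5l.L, while the Ctrl libraries spread widely and overlapped with Ext 4 h, Ext 0 h and ATP 0 h but not with ATP 4 h.

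The .S copy was read at a lower count and varied less. It had 16.2, 17.8 and 21.4 CPM at Ext 4 h and 27.1, 27.2 and 27.8 CPM at Ext 0 h. It had 16.004, 17.9 and 18.9 CPM at ATP 4 h and 32.5, 29.7 and 29.9 CPM at ATP 0 h. In Ctrl it had 28.2, 26.8 and 26.4 CPM. The 6 libraries at 4 h were thus the 6 lowest of the 15 for ier5l.S, the 3 ATP 0 h libraries were the highest, and Ext 0 h and Ctrl overlapped.

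**Figure D1:**
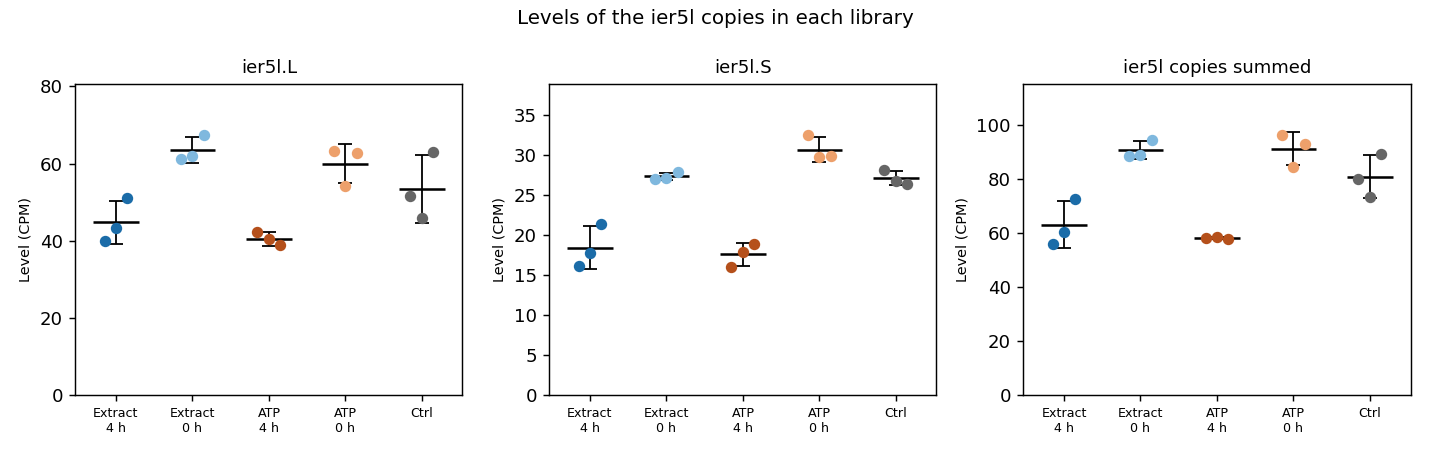
Level of ier5l.L, ier5l.S and their sum (CPM, y axes from 0) in each library of the 5 groups; points are libraries, the horizontal line is the group mean and the bar is 1 SD to either side (n = 3). The 6 libraries at 4 h lie below the 6 at 0 h in all 3 panels, and the summed copies lie within 57.7 to 58.5 CPM in the 3 ATP 4 h libraries.

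The log2 fold change of ier5l.L was -0.50 (SE 0.127) for Ext 4 h against Ext 0 h and -0.57 (SE 0.127) for ATP 4 h against ATP 0 h. That of ier5l.S was -0.57 (SE 0.111) for extract and -0.80 (SE 0.111) for ATP. Lower values without overlap were found for 3.33% of all genes in extract and 7.82% in ATP. Averaged over both stimuli, ier5l.L had 42.6 CPM at 4 h and 61.7 CPM at 0 h, a log2 fold change of -0.54 (SE 0.0899), and ier5l.S had 18.0 CPM at 4 h and 29.0 CPM at 0 h, a log2 fold change of -0.69 (SE 0.0784). This averaged comparison chose the copies. It called 14 of 24052 genes (0.0582%) at an adjusted p under 0.05 in edgeR's quasi-likelihood test, both ier5l copies among them, and in it 0.291% of genes had all 6 libraries at 4 h below all 6 at 0 h. Of the other ier copies ier2.S had the smallest adjusted p in this averaged comparison, 0.459 in edgeR, with a log2 fold change of -0.48, and was far from the threshold. The overall test of any difference between the groups called 5 genes, and ier5l.S but not ier5l.L was one of them.

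Against Ctrl, ier5l.S had a log2 fold change of -0.56 (SE 0.111) at Ext 4 h and -0.63 (SE 0.111) at ATP 4 h, with no overlap between the libraries in either case. Lower values without overlap were found for 5.68% of all genes at Ext 4 h and 4.47% at ATP 4 h. The log2 fold change of ier5l.L was -0.26 (SE 0.127) at Ext 4 h, where the groups overlapped, and -0.40 (SE 0.127) at ATP 4 h, where they did not. Directly after the stimuli the differences from Ctrl were smaller for ier5l.S, and for ier5l.L after ATP. For ier5l.L in extract the differences at 0 h and 4 h were alike in size. Which was larger turned on single Ctrl libraries. Without Ctrl replicate 3 they were 0.38 at Ext 0 h and -0.12 at Ext 4 h, and without Ctrl replicate 2 they were 0.14 at Ext 0 h and -0.36 at Ext 4 h. With all libraries, the differences at 0 h were 0.25 (SE 0.127) at Ext 0 h and 0.17 (SE 0.127) at ATP 0 h for ier5l.L. For ier5l.S they were 0.01 (SE 0.110) at Ext 0 h and 0.18 (SE 0.109) at ATP 0 h. Of these 4 differences at 0 h only that of ier5l.S at ATP 0 h was without overlap, as for 5.4% of all genes in the higher direction.

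With both copies summed, ier5l had 55.8, 60.5 and 72.6 CPM at Ext 4 h and 88.4, 88.9 and 94.4 CPM at Ext 0 h. It had 57.9, 58.5 and 57.7 CPM at ATP 4 h and 96.0, 84.3 and 92.9 CPM at ATP 0 h. In Ctrl it had 80.0, 73.2 and 89.1 CPM. In the order of group means ATP 0 h (91.1 ± 6.07 CPM) and Ext 0 h (90.6 ± 3.37 CPM) came first and overlapped, and Ctrl (80.8 ± 8.01 CPM) followed and overlapped with both. Next were Ext 4 h (62.9 ± 8.69 CPM) and ATP 4 h (58.0 ± 0.389 CPM; SD, n = 3 each), which overlapped with each other. The highest Ext 4 h library and the lowest Ctrl library were 72.6 and 73.2 CPM, so that Ext 4 h stood clear of Ctrl by less than the SD within either group. With copies summed, 5.51% of symbols were lower at Ext 4 h than in Ctrl without overlap. Averaged over both stimuli the summed copies had 60.5 CPM at 4 h and 90.8 CPM at 0 h, a log2 fold change of -0.59 (SE 0.0764). Ext 4 h and ATP 4 h overlapped in summed ier5l, while their muscle sums did not overlap. Within ATP 0 h, replicate 2 had the highest muscle sum at 56.0 CPM and the lowest ier5l.L and summed ier5l. Within Ctrl the same held for replicate 2, with a muscle sum of 144.5 CPM beside 73.2 CPM of summed ier5l, and replicate 3, with the lowest muscle sum at 9.62 CPM, had the highest summed ier5l at 89.1 CPM. At Ext 4 h replicate 1 likewise had the highest muscle sum, 23.8 CPM, and the lowest summed ier5l, 55.8 CPM. Ext 0 h went the other way, where replicate 3 had both the highest muscle sum, 11.8 CPM, and the highest summed ier5l, 94.4 CPM. At ATP 4 h replicate 2 had the highest of both, 171 CPM and 58.5 CPM, but the summed ier5l of that group lay within 57.7 to 58.5 CPM. The copies were split there. Replicate 3, with the lowest muscle sum of the group at 78.6 CPM, had the lowest ier5l.L at 38.8 CPM and the highest ier5l.S at 18.9 CPM. The Ctrl values of ier5l.S were close together, at 26.8 CPM in replicate 2 and 26.4 CPM in replicate 3. The part of the muscle markers in the ier5l values was not tested.

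Whether the stimuli differed in ier5l could be tested for the .L copy, since neither the averaged comparison nor the overall test chose it for a difference between stimuli. Its log2 fold change for Ext 0 h against ATP 0 h was 0.08 (95% interval -0.19 to 0.35, adjusted p = 0.865, edgeR). For Ext 4 h against ATP 4 h it was 0.14 (95% interval -0.13 to 0.41, adjusted p = 0.9998, edgeR). The change over time in extract minus that in ATP was 0.06 (95% interval -0.32 to 0.44, adjusted p = 0.9998, edgeR). None of these comparisons passed the test, and the intervals leave room for differences of up to 0.35 at 0 h, 0.41 at 4 h and 0.44 in the changes. They are not set against the time difference, since that comparison chose the copy. The choice can also favour a small spread between libraries, which would narrow the intervals. For ier5l.S, given without a test, Ext 0 h was lower than ATP 0 h in all libraries at -0.17 (SE 0.110), as 6.89% of all genes were. Ext 4 h against ATP 4 h was 0.07 (SE 0.112), and the difference of changes was 0.24 (SE 0.156). Without Ext 4 h replicate 3, the highest of its group for both copies, these last 2 values were -0.05 and 0.12.

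**Figure D2:**
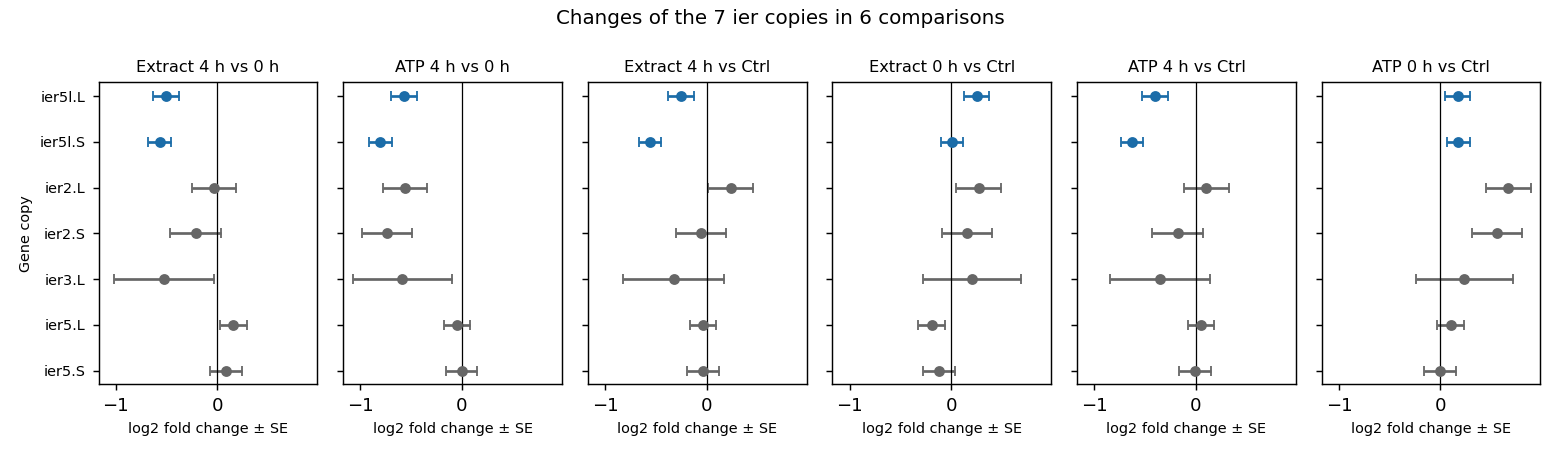
Log2 fold change (x axes) of the 7 ier copies in 6 comparisons; points are edgeR estimates and bars are 1 SE to either side, blue for the ier5l copies and grey for the others. The ier5l copies lie left of 0 in the 4 panels that set 4 h against 0 h or against Ctrl, and the ier2 copies lie farthest right in the last panel, ATP 0 h against Ctrl, at 0.67 and 0.56.

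The ier2 copies were highest on average at ATP 0 h. Ier2 is a nuclear protein of the same family and a widely used marker of early responses in mammalian cells. The .L copy had 19.7, 20.6 and 35.3 CPM at Ext 4 h and 29.9, 19.9 and 27.7 CPM at Ext 0 h. It had 19.7, 25.5 and 23.6 CPM at ATP 4 h, 33.2, 36.8 and 31.6 CPM at ATP 0 h and 26.1, 16.9 and 21.2 CPM in Ctrl. The ATP 0 h libraries stood above all ATP 4 h, Ext 0 h and Ctrl libraries, and only Ext 4 h replicate 3 reached into their range. Among all genes 6.89% were likewise lower at Ext 0 h than at ATP 0 h without overlap.

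The .S copy of ier2 had 10.2, 13.9 and 22.0 CPM at Ext 4 h and 22.4, 14.1 and 16.8 CPM at Ext 0 h. It had 11.5, 18.0 and 12.8 CPM at ATP 4 h, 21.6, 25.9 and 23.2 CPM at ATP 0 h and 18.6, 15.1 and 14.2 CPM in Ctrl. The ATP 0 h libraries again lay above every ATP 4 h and Ctrl library, while 1 library each of Ext 4 h and Ext 0 h overlapped with them.

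At ATP 0 h against Ctrl the log2 fold change was 0.67 (SE 0.220, adjusted p = 0.984, edgeR) for ier2.L and 0.56 (SE 0.246, adjusted p = 0.984, edgeR) for ier2.S. The unadjusted p-values in edgeR were 0.00861 and 0.0380. Neither copy passed the test, which called 0% of genes in this comparison. For ATP 4 h against ATP 0 h the log2 fold change was -0.56 (SE 0.219, adjusted p = 0.548, edgeR) for ier2.L and -0.74 (SE 0.246, adjusted p = 0.515, edgeR) for ier2.S, and the test called 0.0125% of genes. In both comparisons both copies were without overlap. Of all genes tested, 5.4% were higher at ATP 0 h than in Ctrl without overlap, and 7.82% were lower at ATP 4 h than at ATP 0 h without overlap. The muscle markers, lower at ATP 0 h than at ATP 4 h, moved the other way, and their part in the ier2 values was not tested.

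With the copies summed, ier2 averaged 57.7 ± 4.64 CPM at ATP 0 h and 37.4 ± 6.56 CPM in Ctrl (SD, n = 3 each), a log2 fold change of 0.63 (adjusted p = 0.977, edgeR), in a comparison that called 0.00539% of summed symbols. At ATP 4 h it averaged 37.0 ± 6.37 CPM, a log2 fold change of -0.64 against ATP 0 h (adjusted p = 0.540, edgeR), where 0.0162% of summed symbols were called. In the extract groups it averaged 40.5 ± 14.9 CPM at Ext 4 h and 43.5 ± 9.26 CPM at Ext 0 h, a log2 fold change of -0.10 (adjusted p = 0.9999, edgeR), or -0.44 without Ext 4 h replicate 3. The direct comparison of Ext 0 h with ATP 0 h gave -0.41 (95% interval -0.89 to 0.07, adjusted p = 0.719, edgeR), and the change over time in extract minus that in ATP was 0.54 (95% interval -0.15 to 1.22, adjusted p = 0.9999, edgeR), or 0.20 without Ext 4 h replicate 3. A difference in ier2 between the stimuli was thus not shown at this number of libraries.

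**Figure D3:**
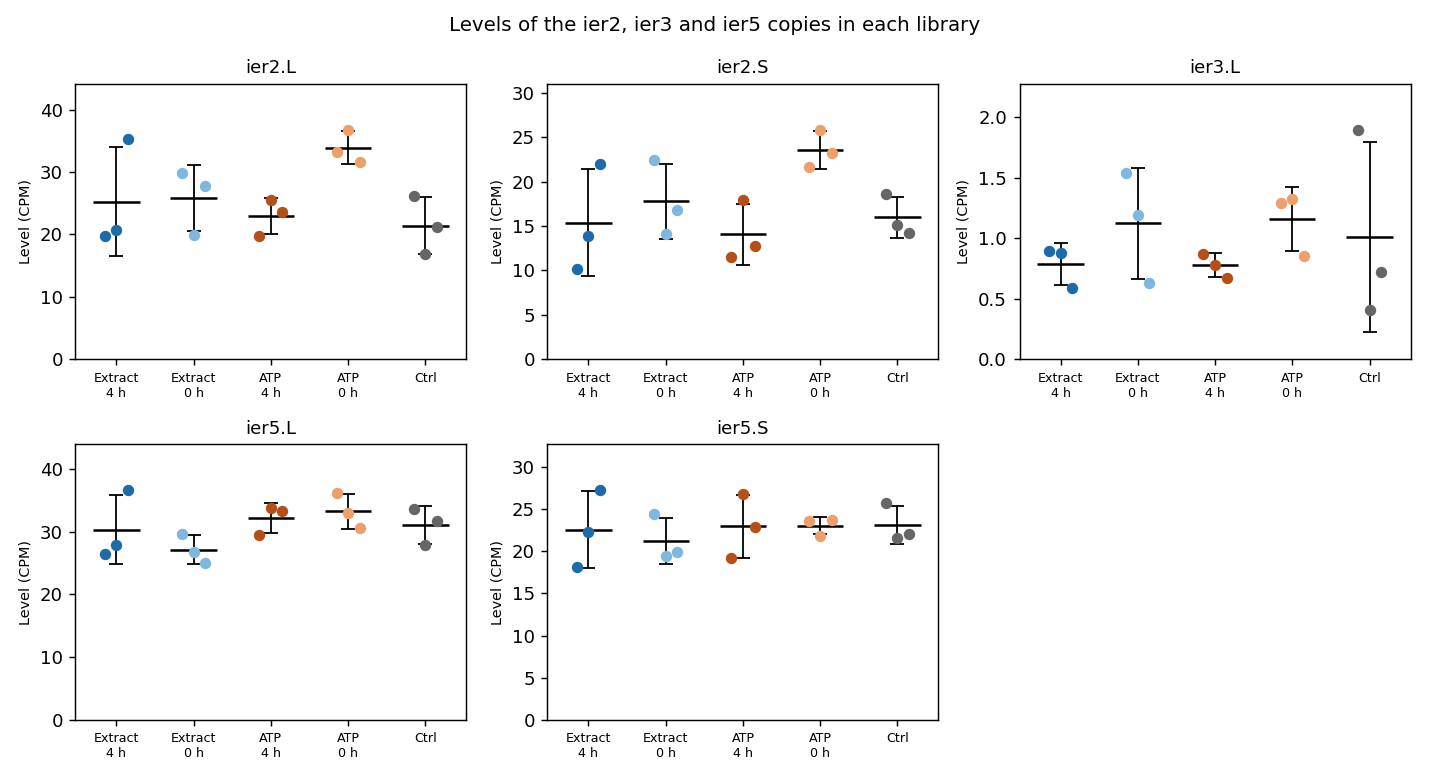
Level (CPM, y axes from 0) of ier2.L, ier2.S, ier3.L, ier5.L and ier5.S in each library of the 5 groups; points are libraries, lines are group means and bars are 1 SD to either side (n = 3). The ier2 copies are highest on average at ATP 0 h, ier3.L stays below 2 CPM in all libraries, and the groups of ier5.S overlap throughout.

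The ier5 copies, whose human counterpart is the PP2A partner that acts on HSF1, passed no test between the groups. The .L copy had 26.4 to 36.6 CPM at Ext 4 h, 25.0 to 29.6 CPM at Ext 0 h, 29.4 to 33.8 CPM at ATP 4 h, 30.6 to 36.1 CPM at ATP 0 h and 27.8 to 33.6 CPM in Ctrl. The .S copy had 18.2 to 27.2 CPM at Ext 4 h, 19.5 to 24.4 CPM at Ext 0 h, 19.3 to 26.8 CPM at ATP 4 h, 21.8 to 23.7 CPM at ATP 0 h and 21.6 to 25.7 CPM in Ctrl. The groups overlapped in every comparison except for ier5.L at Ext 0 h, which lay below ATP 0 h, as 6.89% of all genes did.

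For that difference the log2 fold change of ier5.L was -0.29 (95% interval -0.57 to -0.01, adjusted p = 0.742, edgeR), which did not pass the test. Averaged over both stimuli, the 4 h against 0 h log2 fold change was 0.05 (95% interval -0.14 to 0.25, adjusted p = 0.847, edgeR) for ier5.L and 0.04 (95% interval -0.19 to 0.27, adjusted p = 0.912, edgeR) for ier5.S. No test of ier5l against ier5 was made, since ier5l was chosen for its difference.

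The .L copy of ier3, a gene of stress and survival signalling in mammals, had low counts. Its expected counts were between 7 and 29 per library, at 0.589 to 0.894 CPM at Ext 4 h, 0.633 to 1.54 CPM at Ext 0 h, 0.673 to 0.870 CPM at ATP 4 h, 0.856 to 1.32 CPM at ATP 0 h and 0.403 to 1.90 CPM in Ctrl. All groups overlapped with Ctrl. The averaged 4 h against 0 h log2 fold change was -0.56 (95% interval -1.29 to 0.18, adjusted p = 0.587, edgeR), the widest of these intervals among the tested ier copies.

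The members also differed in how closely the pools of a group agreed. The within-group SD of log2 CPM was 0.114 for ier5l.S, 0.149 for ier5l.L, 0.158 for ier5.L and 0.198 for ier5.S, against a median of 0.226 over genes with at least 1 CPM. That median includes genes with far lower counts and more counting error. The ier5l copies were chosen by a test that weighs the difference against this spread, so their low SD is partly due to the choice. It was 0.303 for ier2.L, 0.343 for ier2.S and 0.552 for ier3.L. Counting error alone would give 0.388 for ier3.L but 0.072 and 0.089 for ier2.L and ier2.S. Deviations of the libraries from their group means were correlated between ier2.L and ier2.S at r = 0.856, between ier2.S and ier5.S at r = 0.917 and between ier5.L and ier5.S at r = 0.811, but at r = 0.374 between the ier5l copies, over 15 libraries that share depth and scaling. For ier5l.S r was 0.801 with ier5.L, 0.745 with ier5.S, 0.700 with ier2.L and 0.665 with ier2.S. For ier5l.L the values in the same order were 0.428, 0.287, 0.411 and 0.209. With ier3.L r was -0.125 for ier5l.S and -0.134 for ier5l.L.

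The split between the copies was then compared. Reads that fit both copies are divided between them by RSEM, and the ier5l counts were not whole in 10 libraries and the ier5 counts in 6, in all of which the 2 copies summed to a whole number within 0.005. For ier2 no such division occurred. The .L copy held 70.8 ± 0.401% of the ier5l counts at Ext 4 h and 69.9 ± 0.735% at Ext 0 h. It held 69.7 ± 2.73% at ATP 4 h, 66.1 ± 1.59% at ATP 0 h and 66.0 ± 3.89% in Ctrl (SD, n = 3 each). The share averaged 70.3 ± 1.86% at 4 h and 68.0 ± 2.35% at 0 h for ier5l (SD, n = 6 each), a difference of 2.28 percentage points with overlapping libraries, given without a test because the same comparison chose the gene.

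For ier2 the .L share averaged 62.3 ± 2.86% at 4 h and 59.1 ± 1.92% at 0 h (SD, n = 6 each), a difference of 3.21 percentage points (two-sided exact permutation p = 0.06, adjusted p = 0.12 over the 2 gene pairs tested). For ier5 it averaged 58.0 ± 2.00% at 4 h and 57.6 ± 2.39% at 0 h, a difference of 0.385 percentage points (two-sided exact permutation p = 0.76). Neither difference passed the test. A single library's share of ier5l carries an exact 95% interval such as 68.0 to 74.3% for Ext 4 h replicate 1, which covers counting error only.

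**Figure D4:**
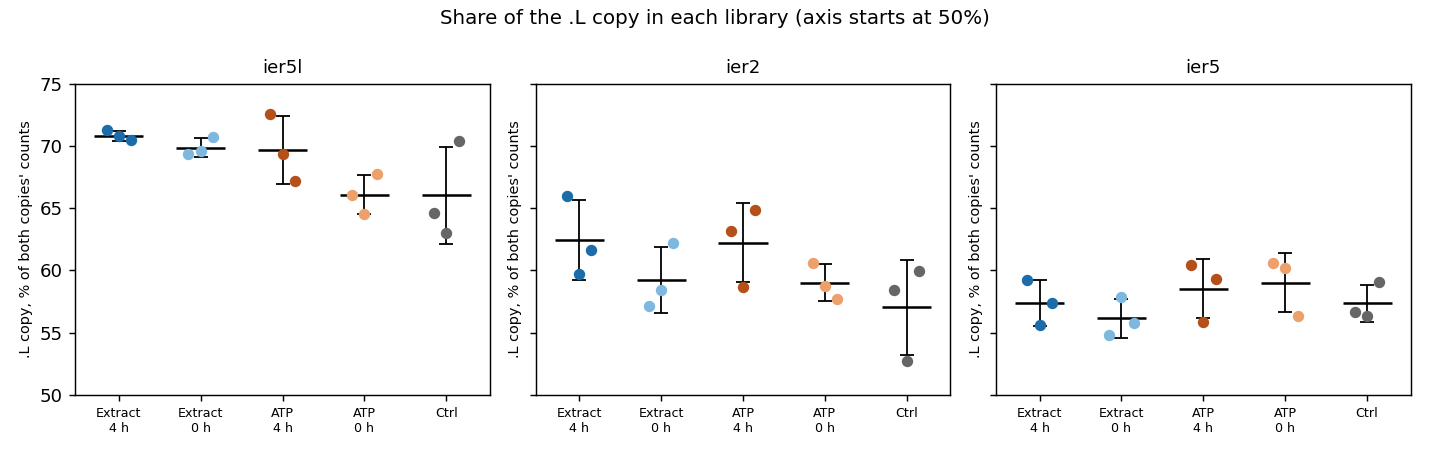
Share of the .L copy in the counts of both copies (percent, y axis from 50 to 75%) for ier5l, ier2 and ier5 in each library of the 5 groups; points are libraries, lines are group means and bars are 1 SD to either side (n = 3). The .L copy holds over 50% in all libraries, and for ier5l the lowest share, 63.0%, is that of a Ctrl library.

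The genes with a pattern most like that of the summed ier5l copies were sought among 21000 genes by the Pearson correlation of log2 CPM over the 15 libraries. The 5 highest were sox9.L (r = 0.949), smad7.L (r = 0.942), znf703.S (r = 0.932), bmp4.L (r = 0.914) and msx1.S (r = 0.901). Sox9 is a transcription factor of neural crest and skeletal development, smad7 an inhibitory Smad of TGF-beta and BMP signalling, znf703 a zinc-finger corepressor, bmp4 a secreted ligand and msx1 a homeobox factor. Over the deviations from the group means, which leave out the differences between groups, r was 0.848 for sox9.L, 0.755 for smad7.L, 0.600 for znf703.S, 0.775 for bmp4.L and 0.691 for msx1.S. The same deviations entered the correlation that chose these genes, so the choice favoured high values here too. By Spearman's coefficient 3 of the 5 were again among the 5 highest. Of the family itself, r over the 15 libraries was 0.634 for ier2.S, 0.476 for ier2.L, 0.110 for ier5.S and 0.033 for ier5.L. Over the deviations it was 0.420, 0.586, 0.504 and 0.634 in the same order.

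The level of smad7.L averaged 13.9 CPM at Ext 4 h, 20.8 CPM at Ext 0 h, 12.99 CPM at ATP 4 h, 20.8 CPM at ATP 0 h and 18.8 CPM in Ctrl. That of sox9.L averaged 32.6 CPM at Ext 4 h, 41.9 CPM at Ext 0 h, 28.9 CPM at ATP 4 h, 41.3 CPM at ATP 0 h and 35.9 CPM in Ctrl. Both thus had their 2 lowest means at 4 h and their 2 highest at 0 h, as ier5l did. They were chosen by correlation over these same libraries, so this likeness of means followed largely from the choice.

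**Figure D5:**
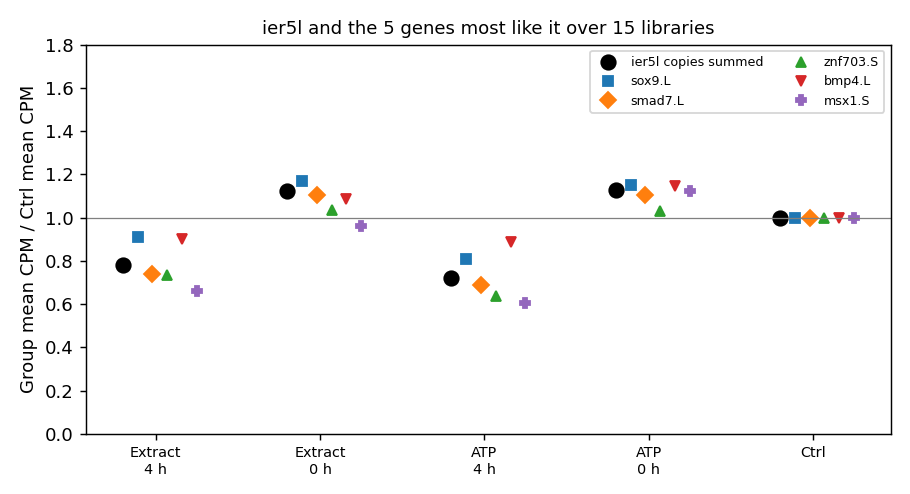
Group mean CPM divided by the Ctrl mean CPM (y axis, linear, from 0; 1 is the Ctrl level) for the summed ier5l copies and the 5 genes most like them over 15 libraries, in the 5 groups. All 6 lie below 1 at Ext 4 h and ATP 4 h, and all but msx1.S at Ext 0 h lie above 1 at 0 h. The 5 genes were chosen for their likeness in these same libraries.

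Other early genes were counted from lists of transcription factors and of feedback and mRNA decay genes. Averaged over both stimuli, 2 of 44 tested early transcription factors fell at 4 h against 0 h and none rose, where 0.0582% of all genes were called, and 30 of the 44 had a negative log2 fold change, with a median of -0.15 beside -0.0023 for all genes. Those that fell were the AP-1 subunits jun.L, with 17.4 CPM at 4 h and 29.6 CPM at 0 h (log2 fold change -0.77, adjusted p = 0.00437, edgeR), and jun.S (log2 fold change -0.78, adjusted p = 0.0201, edgeR). Of 49 tested feedback and decay genes 2 fell and none rose in the same comparison (0.0582% of all genes called), with 41 negative and a median of -0.18. These were the GTPase gene rhob.L (log2 fold change -0.60, adjusted p = 0.0201, edgeR) and the mRNA decay factor zfp36l1.S (log2 fold change -0.48, adjusted p = 0.0201, edgeR). Both feedback genes lost their call when any single 0 h library was left out, and likewise without Ext 4 h replicate 1 or 2 or ATP 4 h replicate 1 or 3, and zfp36l1.S also without ATP 4 h replicate 2. The call of jun.S was lost without each of 7 of the 15 libraries, namely every ATP 0 h library, Ext 0 h replicates 1 and 3 and Ext 4 h replicates 1 and 2. For jun.L every one of the 21 alternatives kept the call in this averaged comparison. The lists were drawn up with these results known, so jun, rhob and zfp36l1 are not independent evidence beside ier5l.

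The jun copies resembled ier5l over the libraries, with r = 0.886 for each and ranks of 10 and 8 among the 21000 genes, and zfp36l1.S had r = 0.880. Over the deviations from the group means r was only 0.174 for jun.L and 0.251 for zfp36l1.S, and 0.542 for jun.S. The AP-1 gene fos.L, by contrast, averaged 2.93 ± 0.864 CPM at ATP 4 h, 9.12 ± 1.64 CPM at ATP 0 h and 3.23 ± 0.548 CPM in Ctrl (SD, n = 3 each). In the extract groups it stayed at 3.40 ± 0.628 CPM at 4 h and 3.35 ± 0.331 CPM at 0 h. It fell at ATP 4 h against ATP 0 h (log2 fold change -1.63, adjusted p = 0.0224, edgeR), as did jun.L (log2 fold change -0.96, adjusted p = 0.0224, edgeR), these being 2 of the 44 listed factors, where 0.0125% of all genes were called. With the replicate number as a block, which pairs the ATP 0 h libraries with those of ATP 4 h and Ctrl, 4 factors were called there, namely both copies of fos and of jun. The fit with the block called 0.0582% of all genes in that comparison. In the fit with no block, neither fos.L nor jun.L was called without ATP 0 h replicate 1 or 2, any ATP 4 h library, Ext 4 h replicate 1 or 2, or Ctrl replicate 2, and fos.L also not without ATP 0 h replicate 3 or Ext 0 h replicate 2. The orphan nuclear receptor nr4a1.L averaged 26.9 ± 3.51 CPM at ATP 4 h and 9.56 ± 1.81 CPM in Ctrl (log2 fold change 1.501, adjusted p = 0.0299, edgeR) and was the only listed factor called as higher there, and the only gene of all 24052 called in that comparison (0.00416%). At ATP 0 h nr4a1.L already averaged 23.1 CPM (log2 fold change 1.28 against Ctrl, adjusted p = 0.0667, edgeR). Its log2 fold change for ATP 4 h against ATP 0 h was 0.22 (adjusted p = 0.697, edgeR). In extract it averaged 15.95 CPM at 4 h and 11.8 CPM at 0 h. Its call was lost without each of 10 libraries, namely every Ctrl and every Ext 0 h library, Ext 4 h replicate 2, ATP 4 h replicates 2 and 3 and ATP 0 h replicate 3, at adjusted p-values of 0.0697 to 0.227 in edgeR. At ATP 0 h against Ctrl no gene of any list passed edgeR's test in the main fit, which has no block, where 0% of all genes were called. Other edgeR fits with no block called some early transcription factors there. With the copies summed 1 was called, where 0.00539% of summed symbols were called. With no filter on low counts 3 were called, but the share of all genes called in that fit is not given, so this count has no background beside it. With the block fos.S was called (log2 fold change 1.65, adjusted p = 0.0308, edgeR), where 0.00416% of all genes were called. In the main fit the median log2 fold change at ATP 0 h against Ctrl was 0.19 for the transcription factors and 0.08 for the feedback genes, beside 0.0035 for all genes.

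Genes of the pathways in which human IER5 acts were also counted. Of 31 tested genes of HSF1 and its chaperone targets none passed edgeR's test in the averaged comparison, where 0.0582% of all genes were called. At that share a list of this size would usually hold no called gene. Of the 31 genes 24 were negative, with a median log2 fold change of -0.08 beside -0.0023 for all genes. The smallest p-values in that list belonged to the co-chaperone gene dnaja1.S, with 53.1 CPM on average at 4 h and a log2 fold change of -0.18 (adjusted p = 0.465, edgeR), and to hsp70.L, with 6.62 CPM and a log2 fold change of 0.27 (adjusted p = 0.516, edgeR). Of 16 tested PP2A subunit genes none passed either, at the same share of all genes called, with a median of -0.09, and 14 were negative. The smallest p-values were those of both copies of ppp2r3a, a regulatory subunit, at log2 fold changes of 0.54 for the .L copy (adjusted p = 0.414, edgeR) and 1.90 for the .S copy (adjusted p = 0.343, edgeR). With the replicate block the .S copy was called for ATP 4 h against ATP 0 h (log2 fold change 3.20, adjusted p = 0.0397, edgeR), where 0.0582% of all genes were called. The .S copy averaged 0.326 CPM at Ext 4 h, 0.192 CPM at Ext 0 h, 1.098 CPM at ATP 4 h, 0.117 CPM at ATP 0 h and 0.722 CPM in Ctrl. Its high groups, ATP 4 h and Ctrl, were those with the highest muscle markers, whose part in this was not tested.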

How the data were processed

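Total RNA of pooled Xenobots was depleted of ribosomal RNA and sequenced as stranded single-end libraries, per the labels. The authors deposited expected counts of each gene, from RSEM by the column headers; fastp, STAR and limma are also named in the submitters' processing notes, and the genome build and annotation are not given in the sources used here. The authors also deposited log2 CPM adjusted for surrogate variables for 28009 genes, used as an alternative. Members and lists were chosen with earlier results of these data known.

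Expected counts were rounded (69.1% of values were whole), filtered with filterByExpr to 24052 genes, TMM-scaled and tested with edgeR 4.0.16 (R 4.3.3; quasi-likelihood, robust, 1 coefficient per group, 15 libraries), with Benjamini-Hochberg adjustment over all genes and a threshold of 0.05. A second fit summed the .L and .S counts of each symbol (18562 tested). Log2 CPM used a prior count of 2. The averaged 4 h against 0 h test was checked on simulated counts. The copy share of ier5l, planned as a test, is given without one because that comparison chose the gene. All 7 symbols matched the RefSeq gene table of Xenopus_laevis_v10.1. List genes are named where called in any comparison or among the 2 smallest p-values of their list. Same-numbered libraries, numbered in the sample titles, deviated together in 5 of 10 pairs of groups, with each of 3 correlations between 0.158 and 0.494. The main fit used no pairing, also in those pairs of groups. Pairing entered only through the replicate block, an alternative fitted over all 5 groups. With the block the tested copies of ier2, ier3 and ier5 remained uncalled. Alternatives were DESeq2 1.42.0, limma 3.58.1, RLE scaling, no filter, the block, leaving out each library and summing Ext 4 h replicates 1 and 2. These were the closest pair of any group (Pearson r of log2 CPM 0.986, against 0.955 to 0.975 in the other pairs) but differed beyond counting noise, with 28.1% of genes that had at least 20 counts over the pair at a chi-square p under 0.05, and were kept as separate libraries.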

Additional observations from a re-analysis of the deposited data

Results flagged for a closer look

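For the summed ier5 copies, every Ext 0 h library lay below the mean of Ctrl and every ATP 0 h library above it, while both groups overlapped with the Ctrl libraries (44.6 to 54.1 CPM at Ext 0 h and 54.5 to 59.9 CPM at ATP 0 h, against 49.8 to 59.5 CPM in Ctrl, with a Ctrl mean of 54.3 CPM). The mean of the log2 CPM differences from Ctrl was lower for extract than for ATP by a difference of -0.233. A direct test of Ext 0 h against ATP 0 h on the summed copies gave a log2 fold change of -0.23 (unadjusted p = 0.114, adjusted p = 0.719, edgeR), with 48.2 ± 5.09 CPM at Ext 0 h and 56.6 ± 2.95 CPM at ATP 0 h (SD, n = 3 each).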

How the results depend on the processing

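The log2 fold change of ier5l for 4 h against 0 h, averaged over both stimuli, lay between -0.59 and -0.49 for the .L copy, -0.75 and -0.63 for the .S copy and -0.65 and -0.54 for their sum, over 21, 21 and 20 alternatives. All were below 0, but this comparison chose the copies and the alternatives reused the same libraries. As no library at 4 h overlapped with one at 0 h, leaving out 1 library could hardly turn the sign. The constant sign is therefore no independent evidence. Of the 1511 values of the 73 tested ier results under the alternatives, 2 passed the threshold, both for ier2.S in the authors' surrogate-adjusted table with limma, at -0.51 for ATP 4 h against ATP 0 h and -0.35 for the averaged 4 h against 0 h. That fit held only the groups and did not account for the surrogate variables already removed. Its p-values can thus be too small, as can those behind all its counts of called genes below. The SE of the first value was 0.141 there, against 0.246 in the main fit. Another 19 moved by more than the spread between libraries, 15 without Ext 4 h replicate 3 and 4 without Ctrl replicate 1. Leaving out each library in turn, ier5l.S ranged between -0.68 and -0.48 for Ext 4 h against Ctrl, -0.69 and -0.47 for Ext 4 h against Ext 0 h, -0.052 and 0.15 for Ext 4 h against ATP 4 h, and 0.12 and 0.32 for the difference of changes over time. Summed ier2 ranged between -0.44 and 0.083 for Ext 4 h against Ext 0 h and between 0.20 and 0.71 for the difference of changes. The share of the .L copy at 4 h minus 0 h lay between 1.56 and 2.92 percentage points for ier5l.

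Over all genes the averaged comparison called 14, against 83 with DESeq2, 42 with the replicate block, 2523 in the surrogate-adjusted table, 3 with Ext 4 h replicates 1 and 2 summed, 7 with the copies summed, and 3 to 37 without 1 library, where 37 was without Ext 4 h replicate 3. For early transcription factors that comparison called 5 with DESeq2, 14 in the surrogate-adjusted table, 1 with Ext 4 h replicates 1 and 2 summed, 1 with the copies summed and 1 to 3 without 1 library. For feedback and decay genes the same settings gave 4, 9, 0, 1 and 0 to 3. The surrogate-adjusted table called 2 HSF1 and chaperone genes and 3 PP2A genes. For ATP 4 h against ATP 0 h the transcription factors called were 5 with DESeq2, 4 with the replicate block, 12 in the surrogate-adjusted table, 0 with Ext 4 h replicates 1 and 2 summed and 0 to 2 without 1 library. For ATP 0 h against Ctrl they were 3 with no filter, 4 with DESeq2, 1 with the replicate block, 8 in the surrogate-adjusted table, 1 with the copies summed and 0 to 1 without 1 library, and the surrogate-adjusted table called 1 feedback gene and 1 PP2A gene. For ATP 4 h against Ctrl they were 2 with DESeq2, 6 in the surrogate-adjusted table, 0 with Ext 4 h replicates 1 and 2 summed, 0 with the copies summed and 0 to 1 without 1 library. For the ATP comparisons the share of all genes called is not given with DESeq2, with no filter, in the surrogate-adjusted table or without 1 library. Those list counts therefore have no background beside them. Why these counts differ was not tested. The replicate block left every copy of ier2, ier3 and ier5 uncalled. Depth was lowest for ier3.L of the ier copies, at 7 to 29 counts per library; its part in the wide intervals of that gene was not tested.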
